A study of Mus musculus with 4 samples.

Results

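Interleukin 22 and interleukin 10 belong to one cytokine family, and the genes described here are those of both cytokines, of a near-copy of the first and of their receptor chains. The 7 genes were taken by symbol from the deposited table of 27179 genes: the cytokine genes Il22, Iltifb and Il10, and the receptor genes Il10ra, Il10rb, Il22ra1 and Il22ra2. Their mRNA was sequenced from LTi (lymphoid tissue inducer) cells, a lymphotoxin-expressing innate lymphocyte, which were sorted from the small intestinal lamina propria of C57BL/6 mice. The sort took CD127+ CCR6+ cells without lineage markers, KLRG1, NK1.1 or NKp46. There were 2 Gata3-KO libraries, from Gata3fl/fl-VavCre mice, and 2 Ctrl libraries, from Gata3+/+ mice. In Gata3fl/fl-VavCre mice Cre is expressed in blood cells in general, so deletion of Gata3, which codes for a GATA family transcription factor, is not limited to LTi cells. No age is given in the labels, no Cre is named for Ctrl, and nothing says whether the replicates came from separate mice, so p-values measure only the spread between these libraries, which may be technical.

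IL-22 is secreted by innate lymphoid cells and T cells of the gut and acts on epithelium, where it drives antimicrobial proteins and repair. It binds a receptor made of IL-22RA1, which epithelial cells carry and blood cells lack, and the shared chain IL-10RB. IL-10 damps inflammation and binds IL-10RA, found mostly on blood cells, together with the same IL-10RB, and both receptors signal through JAK1, TYK2 and STAT3. IL-22RA2 is a soluble protein that binds and neutralises IL-22.

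Il22 lies on chromosome 10 next to Iltifb, a second copy in reverse orientation that has been described in C57BL/6 mice as lacking the promoter and first exon of Il22. In the GENCODE M21 annotation of GRCm38, 79581 bases separate the genes. Their main spliced transcripts differed in 30 of 1111 aligned positions, 1 of them a gap, which is an identity of 97.3%. Within the 537 coding bases, 9 differed. The stretch of 150 coding bases with the most differences is shown because reads from such stretches can tell the copies apart; capitals mark the 5 differing bases. It covers coding bases 68 to 217 and spans an intron, at chr10:118205058-118205600 on the plus strand for Il22 and chr10:118294380-118294922 on the minus strand for Iltifb.
Il22: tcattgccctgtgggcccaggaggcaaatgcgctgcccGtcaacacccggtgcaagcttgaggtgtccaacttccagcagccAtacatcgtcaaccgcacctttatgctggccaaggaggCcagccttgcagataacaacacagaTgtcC
Iltifb: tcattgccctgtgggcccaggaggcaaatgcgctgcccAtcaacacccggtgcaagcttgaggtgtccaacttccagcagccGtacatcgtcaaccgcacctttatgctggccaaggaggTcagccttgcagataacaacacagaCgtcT
Of the 1061 windows of 50 bases in the Il22 transcript, 435 (41.0%) occur unchanged in the Iltifb transcript, so reads of that length from them fit both genes.

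Before the starts of these GENCODE transcripts the copies part. The next sequences are the 228 bases before the GENCODE starts, read from the RefSeq promoter windows of GRCm38.p6, at chr10:118204714-118204941 (plus strand) for Il22 and chr10:118295039-118295266 (minus strand) for Iltifb. The Il22 stretch lies within the RefSeq gene, which begins at base 118204584, and the Iltifb stretch lies outside its RefSeq gene. They are shown because they mark where the similarity of the copies ends. Capitals mark the stretch next to the start in which they can be laid base on base, with 54 of 57 bases matching. In the remaining 171 bases 42 matched (24.6%).
Il22: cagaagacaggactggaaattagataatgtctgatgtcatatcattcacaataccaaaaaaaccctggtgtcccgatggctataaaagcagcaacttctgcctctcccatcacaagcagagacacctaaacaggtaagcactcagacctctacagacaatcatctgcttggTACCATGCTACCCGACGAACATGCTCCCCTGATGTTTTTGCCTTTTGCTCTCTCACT
Iltifb: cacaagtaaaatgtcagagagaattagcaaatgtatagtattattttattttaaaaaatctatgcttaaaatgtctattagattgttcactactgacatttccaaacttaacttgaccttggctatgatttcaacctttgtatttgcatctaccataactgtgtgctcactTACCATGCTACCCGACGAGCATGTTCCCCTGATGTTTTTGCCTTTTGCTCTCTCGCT
Windows from 250 bases before to 50 bases after a RefSeq start were at hand for Il22, Iltifb and Il22ra1, 3 of the 7 genes. A GATA factor motif, searched as AGATAA or as AGATAG, and as TGATAA or as TGATAG, on either strand, was found in 29.8% of all 32851 windows, with 2 matches for Il22, 1 for Iltifb and 1 for Il22ra1. Of the Il22 matches, 1 begins 207 bases before the GENCODE start, in the part not shared with Iltifb, and the other lies in the transcribed part of both copies. The ROR motif AGGTCA was found in 16.3% of windows and in Iltifb among the 3, with 1 match, while neither the STAT motif TTCNNNGAA (8.30% of windows) nor the AHR motif GCGTG (32.4% of windows) was found in any of the 3.

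The Gata3-KO libraries held 24315878 and 23973995 reads and the Ctrl libraries 14294708 and 12670034 reads, so low genes are measured more precisely in Gata3-KO. Gata3 itself stood at 34.5 and 23.3 RPKM (reads per kilobase of gene, scaled to the reads of the library) in Gata3-KO, against 84.3 and 50.7 RPKM in Ctrl. The groups did not overlap. The difference did not pass in limma (log2 −1.18 ± 0.36 (SE), adjusted p = 0.0901). These whole-gene values check the labels only in part, since other exons can still be transcribed after a deletion. The 15 listed markers of LTi cells and ILC3 were all detected in every library, Kit and Ccr6 among them, with summed levels of 1505 and 1786 RPKM in Gata3-KO and 2060 and 1346 RPKM in Ctrl; Il17a rose and Cd4 fell among them. Over the whole table limma called 1284 of 14219 tested genes (9.03%) at an adjusted p under 0.05, 8.34% higher and 0.689% lower in Gata3-KO. The median tested gene lay 0.43 log2 units higher in Gata3-KO on the deposited scale; with median-ratio scaling, which removes most of that shift, 1.03% were called, 0.598% higher and 0.436% lower.

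Of the 7 genes, 6 passed the filter on low reads and 3 were called: the cytokine copies Il22 and Iltifb fell and the receptor gene Il10ra rose. Of all tested genes 9.03% were called, 8.34% as higher and 0.689% as lower. Without the filter, over all 27179 genes, none of the 3 was called (adjusted p of 0.301 to 0.303 in limma, with the same differences). That fit called 76 genes of the whole table, 76 as higher and 0 as lower in Gata3-KO. Il10, Il10rb and Il22ra1 were tested and not called, and Il22ra2 had too few reads for a test. On both scales the groups of all 6 tested genes did not overlap, Il22 and Iltifb being lower and the other 4 higher in both Gata3-KO libraries. Among all tested genes, 54% were higher and 7.58% lower in both Gata3-KO libraries on the deposited scale, and 29.7% higher and 25.6% lower after median-ratio scaling.

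**Figure D1:**
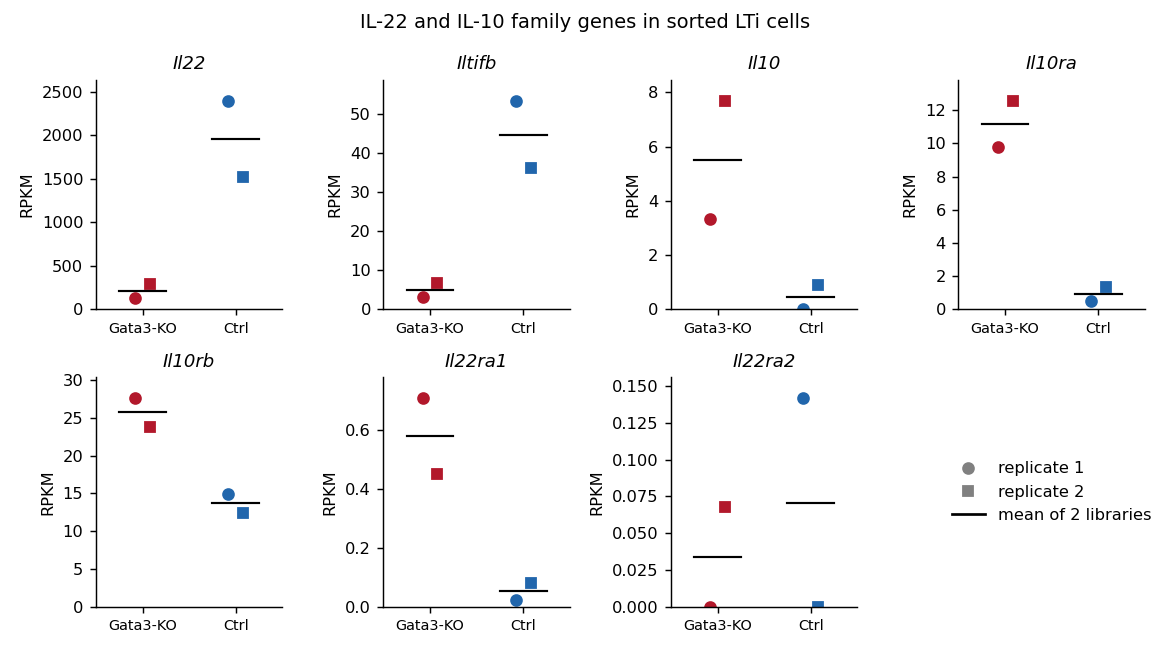
Level of each of the 7 genes in RPKM (vertical axes, each from 0) in the Gata3-KO libraries (red, left) and the Ctrl libraries (blue, right); circles are replicate 1, squares replicate 2, lines the mean of 2 libraries. Both Gata3-KO libraries lie below both Ctrl libraries for Il22 and Iltifb and above them for Il10, Il10ra, Il10rb and Il22ra1, while Il22ra2 overlaps.

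Il22 (Entrez 50929, chromosome 10: 118204584 to 118210047, GRCm38) had 129 and 287 RPKM in Gata3-KO, against 2401 and 1520 RPKM in Ctrl. Every Gata3-KO library was thus far below every Ctrl library. The means were 208 ± 112 RPKM in Gata3-KO and 1961 ± 623 RPKM in Ctrl (SD, n = 2 each), and the Ctrl mean was 9.44-fold the Gata3-KO mean. These levels rest on 3404 and 7475 reads in Gata3-KO and 37342 and 20953 reads in Ctrl, so counting error is small beside the spread between libraries. By RPKM, Il22 ranked 510 and 213 among all genes of the Gata3-KO libraries, against ranks 15 and 22 in the Ctrl libraries. Still, it was the most abundant of the 7 genes in every library. The difference on the log2(RPKM + 1) scale was −3.31 ± 0.48 (SE; adjusted p = 0.0211 in limma), or −3.74 relative to the median tested gene, and −3.90 ± 0.41 after median-ratio scaling (adjusted p = 0.0416 in limma). With any 1 library left out the difference lay between −3.88 and −2.73. The call was then lost, as were all calls of the table on the deposited scale. In a bulk sample, fewer cells with Il22 mRNA and less mRNA per cell cannot be told apart. The summed markers of LTi cells and ILC3 overlapped between the genotypes as deposited, but not after median-ratio scaling, with 1283 and 1386 RPKM in Gata3-KO and 2395 and 1751 RPKM in Ctrl. Their median log2 difference was 0.13, against 0.43 over all tested genes, and −0.46 after median-ratio scaling, against 0.04. After that scaling 8 of the 15 were lower and 2 higher in both Gata3-KO libraries, against 25.6% and 29.7% of all tested genes. Their part in the values of Il22 was not tested.

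Iltifb (Entrez 116849, chromosome 10: 118289629 to 118295038) had 3.11 and 6.80 RPKM in Gata3-KO, against 53.4 and 36.0 RPKM in Ctrl. It thus followed Il22 from library to library at a small fraction of its level. Iltifb stood at 2.42% and 2.37% of the RPKM of Il22 in the Gata3-KO libraries and at 2.22% and 2.37% in the Ctrl libraries. Its log2 difference was −2.99 ± 0.40 (SE; adjusted p = 0.0195 in limma), and −3.52 ± 0.35 after median-ratio scaling (adjusted p = 0.0416 in limma). Without any 1 library it lay between −3.45 and −2.53, and its call was lost like all others on the deposited scale. How reads that fit both copies were counted is not given in the sources used here, so the values of Iltifb are uncertain and are no second measurement of the fall. With both genes summed before the fit, the difference was −3.31 (adjusted p = 0.0212 in limma).

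**Figure D2:**
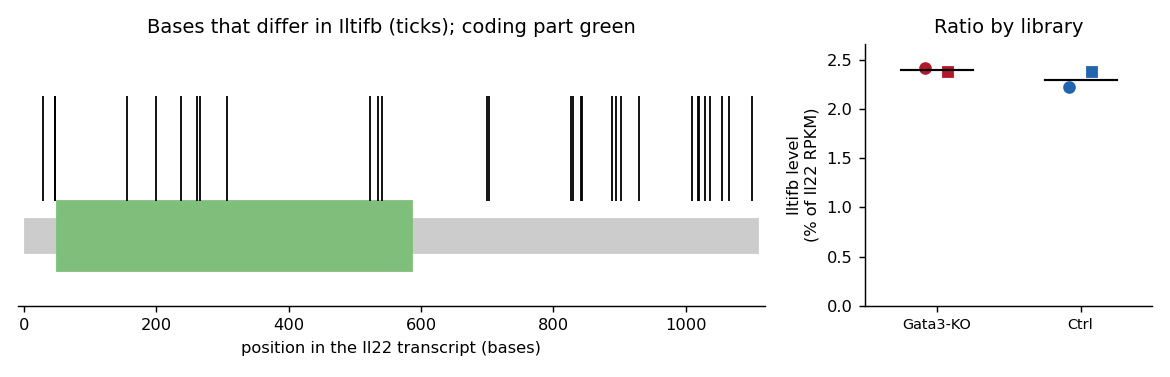
Left, positions in the Il22 transcript (bases) at which the Iltifb transcript differs, drawn as 30 ticks over the transcript with its coding part in green; right, the level of Iltifb as a percentage of Il22 RPKM in each library (Gata3-KO left, Ctrl right, line: mean of 2 libraries). Differences are sparse in the coding part, 9 in 537 bases, and the percentage lies between 2.22% and 2.42% in all 4 libraries.

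Il10 (Entrez 16153, chromosome 1: 131019845 to 131024970) had 3.34 and 7.70 RPKM in Gata3-KO, from 106 and 241 reads. In Ctrl it had 0 and 0.907 RPKM, from 0 and 15 reads; at that depth 0 reads allow up to 0.161 RPKM. Both Gata3-KO libraries were above both Ctrl libraries, and replicate 2 was the higher library in each genotype. The difference did not pass in limma, at log2 2.15 ± 0.50 (SE) with an adjusted p of 0.0502, nor after median-ratio scaling, at 1.81 ± 0.53 with an adjusted p of 0.14. Even in Gata3-KO, Il10 mRNA was low beside Il22, whose RPKM was 38.5 and 37.2 times as high there and 1677 times as high in Ctrl replicate 2, the Ctrl library with Il10 reads.

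Il10ra, the chain that gives the IL-10 receptor its specificity (Entrez 16154, chromosome 9: 45253837 to 45269149), had 9.78 and 12.6 RPKM in Gata3-KO, against 0.461 and 1.33 RPKM in Ctrl. The Gata3-KO libraries stood close together and well above both Ctrl libraries, with means of 11.2 ± 1.98 RPKM in Gata3-KO and 0.897 ± 0.617 RPKM in Ctrl (SD, n = 2 each), 12.5-fold apart. The reads were 831 and 1054 in Gata3-KO and 23 and 59 in Ctrl. The log2 difference was 2.71 ± 0.38 (SE; adjusted p = 0.0196 in limma), or 2.28 relative to the median tested gene. After median-ratio scaling it was 2.29 ± 0.38 and no longer passed (adjusted p = 0.0646 in limma). Nor did it pass without any 1 library, where it lay between 2.38 and 3.05 on the deposited scale. No tested gene passed in those fits.

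Il10rb, the chain shared by both receptors (Entrez 16155, chromosome 16: 91406157 to 91425834), had 27.6 and 23.9 RPKM in Gata3-KO, against 14.9 and 12.5 RPKM in Ctrl. The means of 25.7 ± 2.64 RPKM in Gata3-KO and 13.7 ± 1.73 RPKM in Ctrl (SD, n = 2 each) were 1.88-fold apart. The log2 difference of 0.87 ± 0.27 (SE) did not pass (adjusted p = 0.0973 in limma), and after median-ratio scaling 0.30 ± 0.24 was left (adjusted p = 0.51 in limma). Set against its partner chain, Il10rb stood at 2.82 and 1.90 times the RPKM of Il10ra in Gata3-KO and at 32.3 and 9.34 times in Ctrl, ratios that no scaling of a library changes. That ratio was not tested.

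The chains specific to IL-22 were barely detected. Il22ra1, the epithelial chain (Entrez 230828, chromosome 4: 135728159 to 135755383), had 0.706 and 0.451 RPKM in Gata3-KO from 100 and 63 reads, against 0.0240 and 0.0813 RPKM in Ctrl from 2 and 6 reads. The groups did not overlap. Its difference on the log2(RPKM + 1) scale, which is small for so low a gene, was 0.58 ± 0.20 (SE) and did not pass (adjusted p = 0.121 in limma). Il22ra2, the gene of the soluble IL-22 binding protein (Entrez 237310, chromosome 10: 19622028 to 19634681), had 0 and 4 reads in Gata3-KO and 5 and 0 reads in Ctrl. The libraries with 0 reads allow up to 0.05 RPKM in Gata3-KO and up to 0.0959 RPKM in Ctrl. A difference in Il22ra2 as small as these levels was not detectable at this depth.

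**Figure D3:**
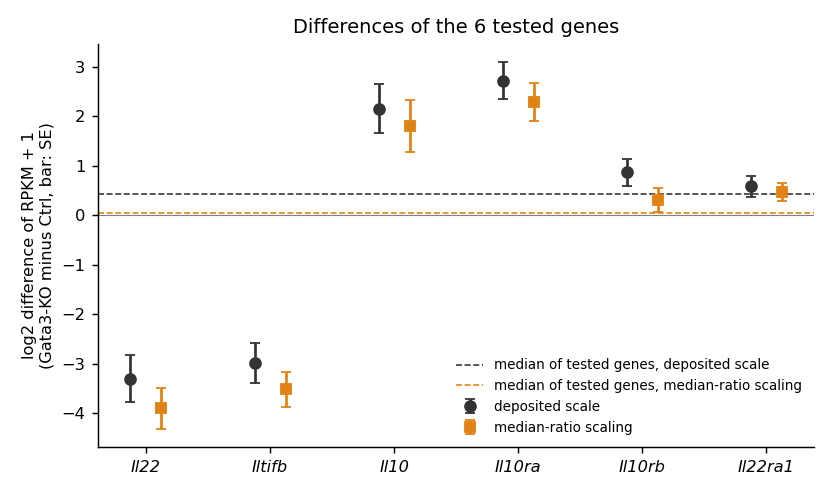
Log2 difference of RPKM + 1 (vertical axis, Gata3-KO minus Ctrl, bars: SE) for the 6 tested genes, from the values as deposited (black circles) or scaled by median ratio (orange squares); dashed lines show the median tested gene on each scale, 0.43 and 0.04. Il22 and Iltifb lie at −3.90 to −2.99 on both scales, and Il10ra lies highest, at 2.71 and 2.29.

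Ordered by RPKM, which is per length and so can be compared between genes, Gata3-KO libraries had Il22 first, then Il10rb, Il10ra, Il10, Iltifb, Il22ra1 and Il22ra2. In Ctrl the order was Il22, Iltifb, Il10rb, Il10ra, Il10, Il22ra2 and Il22ra1. Neighbours that did not differ beyond their spread were Il10 and Iltifb in Gata3-KO, and in Ctrl Il10ra and Il10, Il10 and Il22ra2, and Il22ra2 and Il22ra1. Every other neighbouring pair had ranges that did not overlap. The place of Iltifb in both orders is uncertain, since how reads that fit both copies were counted is not given.

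Summed markers of other cells were higher in the Gata3-KO libraries in which Il10ra, Il10 and Il22ra1 stood higher. Among all tested genes 8.34% were called higher and 0.689% lower. Of 15 B and plasma cell markers 12 rose and none fell, with summed levels of 4555 and 2702 RPKM in Gata3-KO and 546 and 698 RPKM in Ctrl. Of 15 T cell markers 5 rose and none fell, summed to 903 and 506 RPKM in Gata3-KO and 282 and 179 RPKM in Ctrl. Of the 15, 8 were higher in both Gata3-KO libraries as deposited, against 54% of all tested genes. Some others were high in Gata3-KO replicate 1 only, such as Cd3d (62.0 and 2.35 RPKM) and Cd6 (52.3 and 0.165 RPKM). Within Gata3-KO, replicate 1 had the higher B and plasma cell and T cell sums, while Il10ra and Il10 were higher in replicate 2. B and plasma cells and T cells are among the blood cells known to express Il10ra and, in part, Il10. Of 13 tested myeloid markers Siglech rose, with sums over all 15 of 369 and 478 RPKM in Gata3-KO and 256 and 239 RPKM in Ctrl. Most of each sum was Bst2, at 298 and 273 RPKM in Gata3-KO and 216 and 189 RPKM in Ctrl. Of the 15, 6 were higher and 1 lower in both Gata3-KO libraries as deposited, against 54% and 7.58% of all tested genes. Lyz2, for one, had 8.99 and 67.4 RPKM in Gata3-KO and 19.7 and 27.5 RPKM in Ctrl. Of 15 epithelial markers, the cell type of Il22ra1, 11 rose and none fell. They summed to 2329 and 4027 RPKM in Gata3-KO and 1204 and 1415 RPKM in Ctrl. Lyz1 had 468 and 1378 RPKM in Gata3-KO and 747 and 1140 RPKM in Ctrl, most of each Ctrl sum. Replicate 2 had the higher epithelial sum within Gata3-KO, while Il22ra1 was higher in replicate 1 (0.706 and 0.451 RPKM in replicates 1 and 2). After median-ratio scaling 1 B and plasma cell, 1 T cell, 1 myeloid and 5 epithelial markers were called, all higher, against 0.598% of all tested genes. None of these markers was at 0 in both Ctrl libraries, and their part in the values of the receptor genes and Il10 was not tested.

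**Figure D4:**
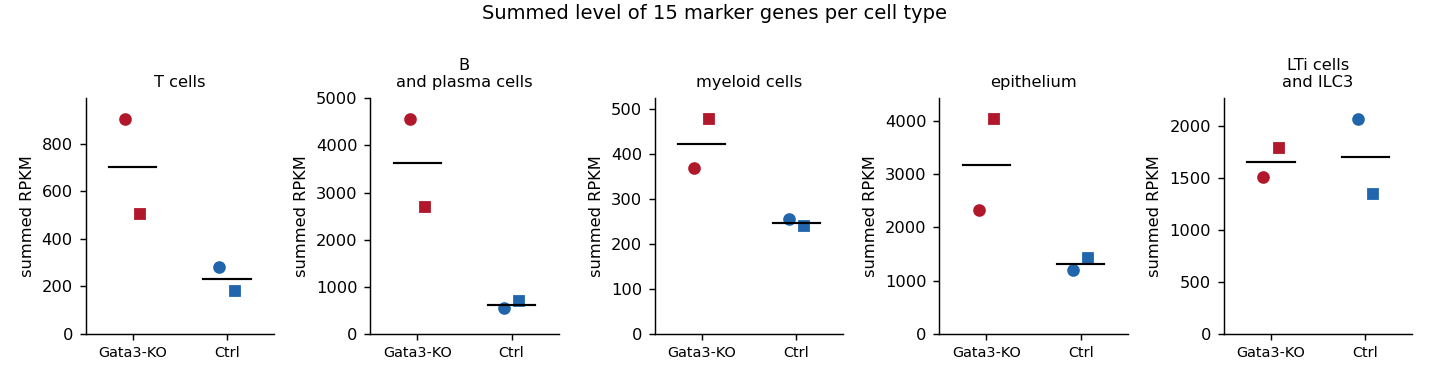
Summed RPKM of 15 marker genes for each of 5 cell types (vertical axes, each from 0) in the Gata3-KO libraries (red, left) and the Ctrl libraries (blue, right); circles are replicate 1, squares replicate 2, lines the mean. B and plasma cell, T cell, myeloid and epithelial sums are higher in both Gata3-KO libraries, and the LTi and ILC3 sums overlap on this deposited scale. Bst2 makes up most of each myeloid sum, and Lyz1 most of each Ctrl epithelial sum. Scaled by median ratio, myeloid sums are 314.5 and 370.5 in Gata3-KO and 297.7 and 311.2 in Ctrl. Epithelial sums are then 1985 and 3123 in Gata3-KO and 1400 and 1841 in Ctrl. After median-ratio scaling both Gata3-KO sums of LTi and ILC3 markers, 1283 and 1386, lie below both Ctrl sums, 2395 and 1751.

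Most other members of the family were at or near 0. Il19, Il20 and Il24, cytokines that skin and epithelial cells respond to, had 0 reads in all 4 libraries. Ifnl2 and Ifnl3, genes of interferon lambda, had at most 0.565 RPKM in any library. Il20ra, a receptor chain of IL-20, had 205 reads (4.04 RPKM) in Gata3-KO replicate 1 and 2 reads in Gata3-KO replicate 2, against 1 read in each Ctrl library, so its high value is that of a single library. Its partner chain Il20rb went the other way, with 0 and 1 reads in Gata3-KO and 16 and 12 reads in Ctrl, and was the 1 tested gene among these 8 (log2 −0.49 ± 0.18 (SE), adjusted p = 0.13 in limma).

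Downstream of the receptors no gene was called among 12 signalling genes, against 9.03% of all tested genes, so few calls would be awaited in so short a list. Their median log2 difference was 0.18, against 0.43 over all tested genes, and −0.39 after median-ratio scaling, against 0.04 over all tested genes. Stat3, the transcription factor that both receptors activate, had 195 and 209 RPKM in Gata3-KO and 188 and 244 RPKM in Ctrl. The genotypes overlapped as deposited, while after median-ratio scaling both Gata3-KO libraries were lower. Socs1, a feedback inhibitor of JAK kinases, had 355 and 387 RPKM in Gata3-KO and 515 and 279 RPKM in Ctrl. Nfil3, a transcription factor gene that IL-10 induces in macrophages, had 168 and 171 RPKM in Gata3-KO and 295 and 190 RPKM in Ctrl (log2 −0.48 ± 0.32 (SE), adjusted p = 0.356 in limma). Zfp36, which codes for the mRNA-destabilising protein tristetraprolin, had 658 and 827 RPKM in Gata3-KO and 378 and 316 RPKM in Ctrl (log2 1.09 ± 0.31 (SE), adjusted p = 0.0781 in limma). With median-ratio scaling the log2 differences were −0.68 for Stat3, −0.63 for Socs1, −1.07 for Nfil3 and 0.50 for Zfp36, and none was called.

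Among 20 genes that feed into Il22 expression in innate lymphoid cells, Vdr, the vitamin D receptor, was the 1 called gene. Of all tested genes 9.03% were called. It had 21.6 and 27.1 RPKM in Gata3-KO and 3.17 and 8.37 RPKM in Ctrl, a log2 difference of 2.01 ± 0.44 (SE; adjusted p = 0.0446 in limma) that did not pass after median-ratio scaling (1.47 ± 0.49, adjusted p = 0.173 in limma). The list's median was 0.50 as deposited and −0.07 with median-ratio scaling, against 0.43 and 0.04 over all tested genes. Rora, a ROR family transcription factor, had 459 and 560 RPKM in Gata3-KO and 1171 and 867 RPKM in Ctrl, without overlap (log2 −0.99 ± 0.33 (SE), adjusted p = 0.11 in limma). After median-ratio scaling its difference was −1.59 ± 0.23 and did not pass either (adjusted p = 0.0573 in limma). Il2rg, the common gamma chain, had 369 and 467 RPKM in Gata3-KO and 602 and 385 RPKM in Ctrl. Tcf7, the gene of TCF-1, had 185 and 196 RPKM in Gata3-KO and 165 and 117 RPKM in Ctrl, and its log2 difference of 0.45 turned to −0.14 after median-ratio scaling. Batf, an AP-1 family factor, had 329 and 83.7 RPKM in Gata3-KO and 55.6 and 68.9 RPKM in Ctrl, a wide gap within Gata3-KO. Il23r, the receptor chain for the IL-22 inducer IL-23, was not called either: it had 55.5 and 68.0 RPKM in Gata3-KO and 66.4 and 41.8 RPKM in Ctrl. Its log2 difference of 0.22 turned to −0.37 after median-ratio scaling.

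**Figure D5:**
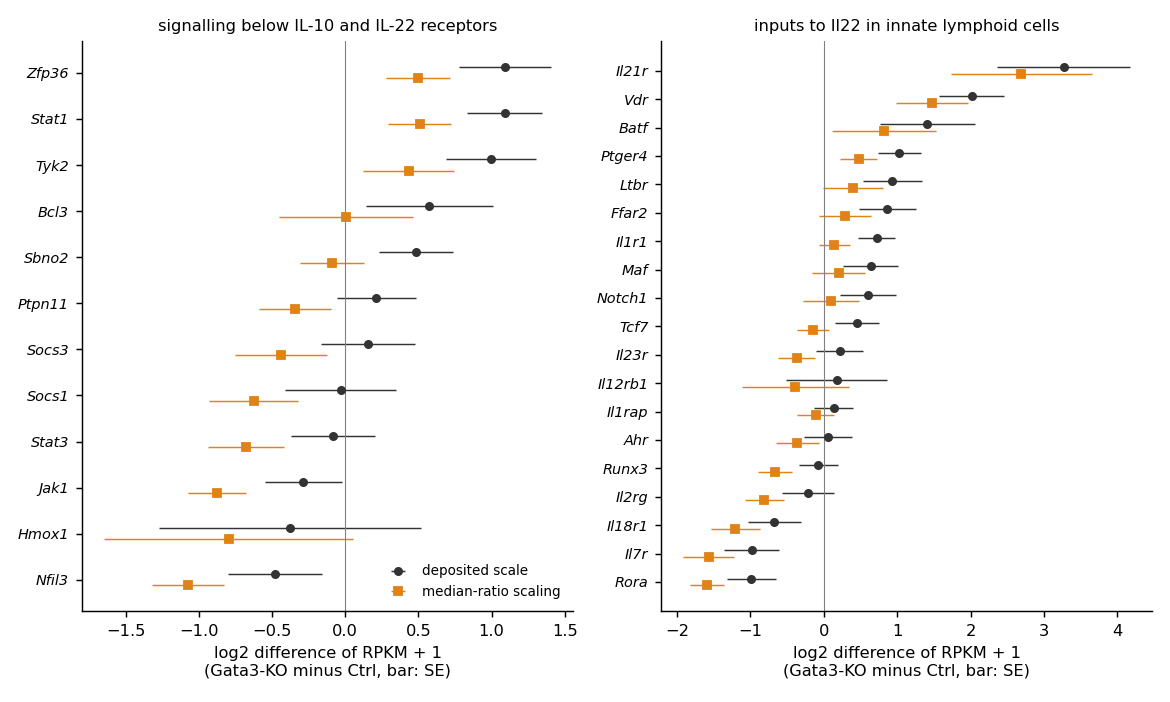
Log2 difference of RPKM + 1 (horizontal axis, Gata3-KO minus Ctrl, bars: SE) of the 12 signalling genes (left) and 19 of the 20 input genes (right), from the values as deposited (black circles) or scaled by median ratio (orange squares). Vdr is the single called gene, on the deposited scale, and Rora and Il7r lie lowest among the inputs.

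Epithelial genes that IL-22 is known to induce were partly detected in the sorted cells. Of 19 such genes 11 were tested, and Duoxa2 and Duox2 (the maturation factor and the enzyme of a hydrogen peroxide source), Nos2 (nitric oxide synthase) and Il18 rose, while none fell. Of all tested genes 8.34% were called higher. The median of the tested genes of the list was 1.44, against 0.43 over all tested genes, and 1.12 after median-ratio scaling, against 0.04. Duoxa2 had 5.86 and 10.2 RPKM in Gata3-KO and 0.132 and 0.397 RPKM in Ctrl (log2 2.80 ± 0.38 (SE), adjusted p = 0.0195 in limma). None was called after median-ratio scaling, where the adjusted p of Duoxa2 was 0.0568 in limma. The antimicrobial lectin genes varied widely: Reg3b had 105 and 757 RPKM in Gata3-KO and 32.8 and 53.6 RPKM in Ctrl, and Reg3g had 133 and 611 RPKM in Gata3-KO and 28.4 and 82.3 RPKM in Ctrl, and neither passed. Pla2g2a, a secreted phospholipase gene, had 23.9 and 50.4 RPKM in Gata3-KO and 15.6 and 18.6 RPKM in Ctrl, and Muc1, a membrane mucin gene, had 7.84 and 18.9 RPKM in Gata3-KO and 31.8 and 13.1 RPKM in Ctrl. The epithelial markers given above were higher in the same libraries, and their part in these values was not tested.

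The genes most like Il22 over the 4 libraries were found by the distance between log2(RPKM + 1) profiles after the mean of each gene was taken off, among 5053 tested genes with a mean of at least 10 RPKM in the higher genotype, leaving out the 7 genes themselves, predicted genes, pseudogenes and antigen receptor genes. They were Eng, the TGF-beta co-receptor endoglin (distance 0.28 log2 units), Nlrp3, an inflammasome sensor (0.34), Upp1, uridine phosphorylase (0.38), Ecm1, a matrix protein gene (0.48), and Pxdc1 (0.58). Eng had 2.63 and 5.68 RPKM in Gata3-KO and 59.7 and 31.7 RPKM in Ctrl, and Nlrp3 had 0.266 and 1.43 RPKM in Gata3-KO and 17.1 and 9.99 RPKM in Ctrl. As with Il22, replicate 2 was the higher Gata3-KO library and replicate 1 the higher Ctrl library in both, an order that the rule itself favours. Nearest to Iltifb, by the same rule, were Nlrp3 (0.12), Eng (0.31), Cxcl9 (0.40), Colgalt2 (0.43) and C2 (0.51). Nearest to Il10ra were Rep15 (0.05), Car9, a carbonic anhydrase gene (0.10), Pcdhgc3, a protocadherin gene (0.14), Ccn1, a matricellular protein gene (0.15), and Fads2, a fatty acid desaturase gene (0.18), and Rep15 had 13.5 and 17.1 RPKM in Gata3-KO and 0.997 and 2.25 RPKM in Ctrl. With 4 libraries such a likeness is a description.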

How the data were processed

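Per the labels' protocols, total RNA came from a miRNeasy Micro kit, and libraries were prepared by Smart-seq2, which uses no molecular identifiers. The submitters' processing notes name Subread, featureCounts and mm10. Versions, the annotation and how reads with several matches were counted: not given in the sources used here. Each deposited value is a log2 of RPKM + 1, to which 0.0001 was added; this was worked out from the values, and the authors' RPKM are relative to each library's total reads.

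Whole reads were recovered from the steps between low RPKM values; library totals came out as whole numbers, and all 19047 genes with reads came out whole within 0.001 reads, as the smallest read numbers possible. They gave depth, filter and floors (3 reads; counting error only). Genes with at least 0.5226 CPM in 2 libraries and 15 reads in all were tested, 14219 genes, with limma 3.58.1 in R 4.3.3 (trend, robust) on log2(RPKM + 1), pseudocount 1, two-sided, Benjamini-Hochberg adjustment over all tested genes, threshold 0.05. Fold changes on that scale understate those of low genes. Recovery and fit were tested on simulated data.

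The 7 genes, gene lists and tests were chosen with earlier results of these data known. Named are the 7 genes, Gata3, called genes of each pathway list and up to 4 uncalled ones with the highest mean RPKM, and the 5 genes nearest to each called member, members left out; Il23r, Il7r, Kit, Ccr6, Siglech, Il17a, Cd4 and the family genes at or near 0 were named in addition, after their values were seen. One gene of the lists is counted in them and not reported here by name. Symbols and coordinates came from RefSeq GRCm38.p6, in which 25275 identifiers were found, and transcripts from GENCODE M21. Alternatives were median-ratio and upper-quartile scaling, a pseudocount of 0.1, a filter of 5 CPM or none, limma-voom fitted to the recovered reads, a replicate block, a plain variance model, leaving out each library, combinations of these and the sum of Il22 and Iltifb. Python 3.11.15, numpy 2.4.6, pandas 2.3.3 and matplotlib 3.10.9 served for the rest.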

Additional observations from a re-analysis of the deposited data

How the results depend on the processing

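All 6 tested genes kept their direction in each of the 107 gene and setting pairs, among which Il22 had log2 differences of −4.38 to −2.73 and adjusted p of 0.00686 to 0.397. In limma without a filter the differences of Il22 (−3.31), Iltifb (−2.99) and Il10ra (2.71) did not change and were no longer called (adjusted p = 0.303, 0.301 and 0.301). Il10ra also lost its call with median-ratio scaling (2.29), upper-quartile scaling (2.27) and limma-voom with median-ratio scaling (3.29); it kept it with a pseudocount of 0.1, the filter of 5 CPM and limma-voom on the deposited scale. The same-numbered libraries deviated from their group means with a correlation of −0.02. With so few libraries this cannot show whether same-numbered libraries were prepared together. With the replicate block Il10 passed (2.15, adjusted p = 0.0268), and with the replicate block and median-ratio scaling Il22 (−3.90), Iltifb (−3.52) and Il10ra (2.29) did not. Without any 1 library none of the 3 was called: on the deposited scale Il22 lay between −3.88 and −2.73, Iltifb between −3.45 and −2.53 and Il10ra between 2.38 and 3.05, and with median-ratio scaling between −4.38 and −3.36, −3.86 and −3.09, and 1.88 and 2.77. In median-ratio scaling Il22 was −3.68 without Ctrl replicate 1 and −4.17 without Ctrl replicate 2, Iltifb −3.76 without Ctrl replicate 2, and Il10ra 2.39 and 2.16 without Gata3-KO replicates 1 and 2. Such fits have 1 library in a genotype, assumed to vary like the others. The 1284 calls (1186 higher, 98 lower) became 147 (85, 62) with median-ratio and 176 (106, 70) with upper-quartile scaling, 852 with a pseudocount of 0.1, 76 without a filter, 223 and, median-ratio scaled, 91 with limma-voom, and 26 with the replicate block and median-ratio scaling. With a library left out limma called 0 genes on the deposited scale (unadjusted p under 0.05 in 2425 to 3815) and 0 to 98 with median-ratio scaling. Other causes of lost calls were not tested. Il22ra2 could not be tested under the filter, and Il10 and Il22ra1 did not enter with the filter of 5 CPM.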
